A study of Mus musculus with 13 samples.

Results

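The clade B serpins examined here are 9 named genes: Serpinb1a, Serpinb2, Serpinb3a, Serpinb3b, Serpinb3c, Serpinb5, Serpinb7, Serpinb11 and Serpinb12. A gene was measured by the probe set that the array's gene annotation lists with exactly its symbol. Of the 9, 8 had such a probe set, 1 each, and all 8 were among the 15875 genes tested of the 19934 genes with a probe set of their own. The level of Serpinb3b was not analysed here, as no probe set was listed with exactly its symbol. The study used dispase-separated epithelium of mouse esophagus and forestomach, the squamous lined upper part of the stomach, on a mixed strain background (C57Bl/6 and 129). Every animal carried the L2-Cre transgene. Controls had wild-type alleles of p120-catenin (Cre/p120 +/+), a protein of the adherens junction encoded by Ctnnd1, and the others had floxed alleles of it (Cre/p120 flox/flox). The groups were control esophagus (animals 214, 216 and 217), flox/flox esophagus (193, 307, 313 and 335), control forestomach (again 214, 216 and 217) and flox/flox forestomach mass (412, 426 and 510). L2-Cre is known as a Cre driven by the ED-L2 promoter of Epstein-Barr virus, which is active in the squamous epithelium of the upper digestive tract; the labels give neither this nor the animals' ages. All flox/flox forestomach samples were masses, so genotype and mass formation cannot be told apart there.

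Serpins fold into a metastable shape with an exposed reactive loop; when a protease cuts the loop, the serpin changes shape and traps the enzyme. Clade B members mostly lack a secretion signal and work inside the cell or after release from it, and squamous epithelia make many of them. Their known targets include urokinase, lysosomal cathepsins and the serine proteases of neutrophils, and some members, such as maspin, the product of Serpinb5, do not inhibit proteases at all.

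In the RefSeq gene table, 8 of the 9 genes lie in 1 cluster on chromosome 1, and Serpinb1a lies on chromosome 13. The cluster runs in the order Serpinb5, Serpinb12, Serpinb13, Serpinb3a, Serpinb3d, Serpinb3b, Serpinb3c, Serpinb11, Serpinb7, Serpinb2, Serpinb10 and Serpinb8. These 12 serpin genes are the 12 protein-coding genes listed within its bounds. RefSeq promoter entries (build GRCm38.p6) were found for the 8 cluster members, with 10 start sites in all, and the 250 bases before each start site were searched on both strands. The stretches of 4 genes are shown: Serpinb2 and Serpinb7, whose levels fell most in the masses, and Serpinb3a and Serpinb3c, close copies with unlike levels across the arrays. Capitals mark matches on either strand, so in part written as the reverse complement. The letters searched were TATAAA, those of a TATA box, TGANTCA, and TTCNNNNGAA, a palindrome of the kind bound by STAT factors. TGANTCA is a loose form of the AP-1 element TGA(C/G)TCA, with any base in the middle. No marked match overlaps another.
Serpinb2 (chr1:107511173-107511422, + strand): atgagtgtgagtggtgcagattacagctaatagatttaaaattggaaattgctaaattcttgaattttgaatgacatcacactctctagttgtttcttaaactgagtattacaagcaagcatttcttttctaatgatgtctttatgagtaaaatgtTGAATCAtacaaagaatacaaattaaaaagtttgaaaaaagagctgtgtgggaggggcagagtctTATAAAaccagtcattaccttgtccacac
Serpinb7 (chr1:107422439-107422688, + strand): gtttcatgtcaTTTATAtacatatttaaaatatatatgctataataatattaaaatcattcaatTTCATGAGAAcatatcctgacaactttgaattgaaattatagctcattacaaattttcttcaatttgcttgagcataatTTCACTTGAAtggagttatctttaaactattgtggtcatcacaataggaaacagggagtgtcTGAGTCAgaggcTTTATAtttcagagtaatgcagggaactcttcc
Serpinb3a (chr1:107052304-107052553, - strand): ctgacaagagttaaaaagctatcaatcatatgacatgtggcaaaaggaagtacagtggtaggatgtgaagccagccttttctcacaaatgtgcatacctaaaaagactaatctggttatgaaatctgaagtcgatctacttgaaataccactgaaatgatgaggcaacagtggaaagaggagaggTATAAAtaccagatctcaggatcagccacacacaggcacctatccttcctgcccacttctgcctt
Serpinb3c (chr1:107278372-107278621, - strand): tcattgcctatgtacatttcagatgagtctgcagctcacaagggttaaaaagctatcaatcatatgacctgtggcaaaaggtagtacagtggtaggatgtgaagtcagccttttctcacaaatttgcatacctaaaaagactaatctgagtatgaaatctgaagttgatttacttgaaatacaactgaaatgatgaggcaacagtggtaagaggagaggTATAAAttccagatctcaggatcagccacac
TATAAA was in 8 of the 10 stretches, against 12.4% of 32851 such stretches in the table, and TGANTCA was in 6, against 6.75%. Among these TGANTCA matches only that of Serpinb7, TGAGTCA, had the C or G of the AP-1 element in the middle. The others read TGAATCA or TGATTCA. The stretches of the Serpinb2 start sites overlap and share their matches. TATAAA lay 29 bases before the first Serpinb2 start site and 65, 41 and 31 bases before those of Serpinb3a, Serpinb3b and Serpinb3c. It lay farther off in Serpinb12 (220 and 201 bases) and before the second Serpinb2 start site (116). In Serpinb7 it was found on the opposite strand only, so the count is of letters and not of placed TATA boxes. TTCNNNNGAA was in 1 stretch, that of Serpinb7, against 5.85%. The Serpinb3a and Serpinb3c stretches shared 81.2% of their bases, and that of Serpinb3b shared 84.4% with Serpinb3a and 91.6% with Serpinb3c, while other pairs of members shared 48.8% to 58.8%. Where on these copies the probes lie is not stated in the labels or files, so the values of Serpinb3a and Serpinb3c could hold signal from each other or from Serpinb3b, which was not tested.

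Array values are log2 intensities, and differences between groups are log2 differences of means with the standard error (SE) of a limma fit over all 13 arrays. Genes with an adjusted p under 0.05 (Benjamini-Hochberg over the 15875 genes) count as called. The targeted gene itself, Ctnnd1, had levels of 10.21 to 10.50 in the esophagus of controls and 9.95 to 10.13 in that of flox/flox animals, and of 10.14 to 10.40 in control forestomach and 9.51 to 9.91 in the masses. Its changes were -0.29 ± 0.11 (SE; limma adjusted p = 0.637) and -0.56 ± 0.12 (adjusted p = 0.0145); which part of the gene its probes read was not given, so this is no direct check of the deletion. All arrays carried squamous genes, with mean log2 levels of 10.18 to 11.29 over 7 basal and 11.05 to 12.56 over 14 differentiation genes. Several arrays stood apart. The esophagus arrays of flox/flox 335, control 214 and flox/flox 307 had mean log2 levels of 17 skeletal muscle genes of 9.23, 8.09 and 7.86, against 5.44 to 5.70 on the other 4. Mass 426 had a mean of 10.64 over 10 glandular stomach genes, against 5.47 to 6.11 on the other 12 arrays. The median SD of a gene was 0.248 among the masses and 0.115 to 0.148 in the other groups, so an SE from the pooled spread may be too small for the masses.

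**Figure D1:**
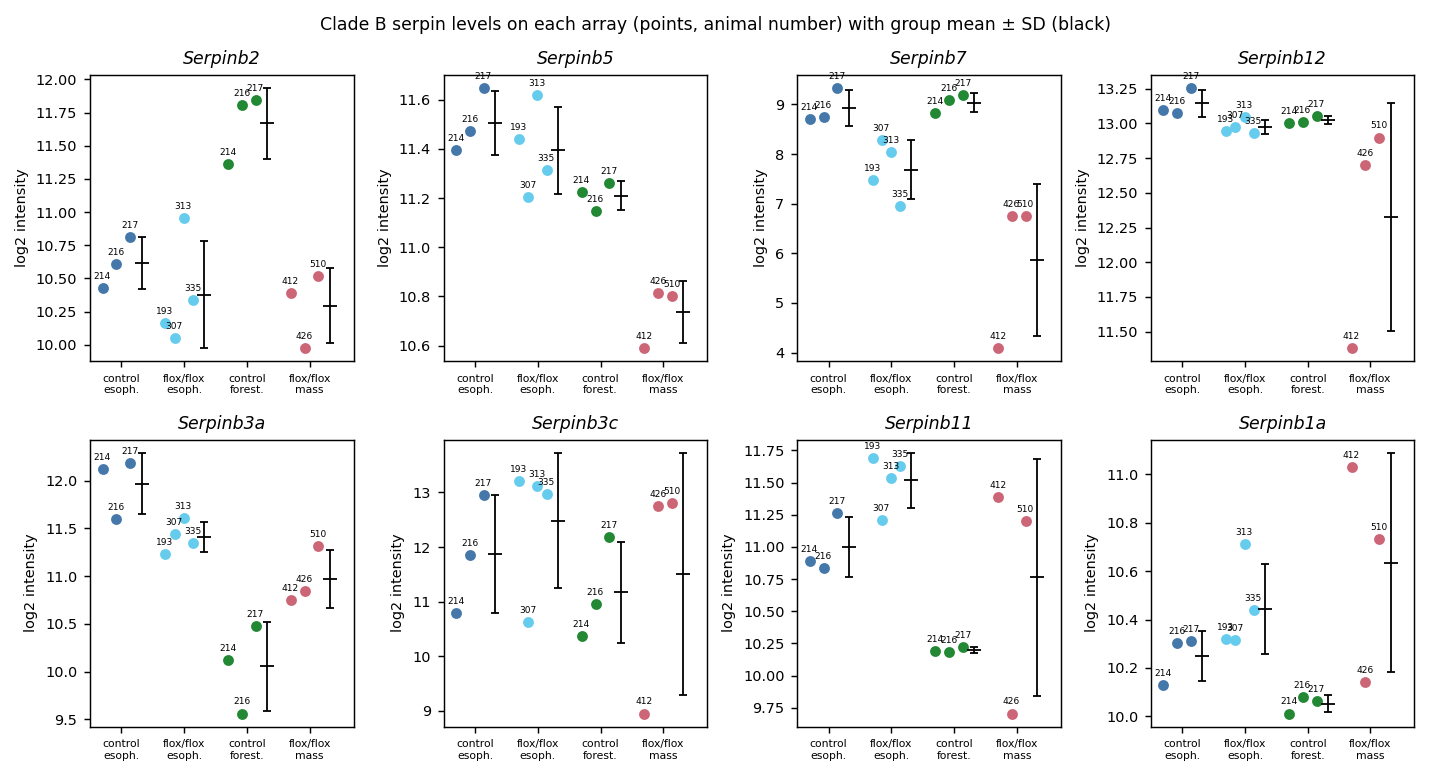
Log2 intensity of each measured clade B serpin on each of the 13 arrays, by group, with animal numbers; black bars give the group mean and SD, and each panel has its own axis, which does not start at 0. The masses lie below control forestomach for Serpinb2, Serpinb5, Serpinb7 and Serpinb12 and above it for Serpinb3a and Serpinb1a. Serpinb12 and Serpinb1a were not called, and the share of all genes without overlap between these groups was not counted. Serpinb3c ranges from 8.95 to 13.22 with overlap of all groups.

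Between the masses and control forestomach, Serpinb2, Serpinb5 and Serpinb7 fell and Serpinb3a rose. The other 4 measured members, Serpinb1a, Serpinb3c, Serpinb11 and Serpinb12, did not pass. Over all genes tested, 8.40% were called lower and 2.31% higher in the masses. The median change over the 8 members was -0.07, and over all genes 0.01. In such tissue samples, fewer cells of a type and less RNA per cell cannot be told apart, here and in all results that follow.

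Serpinb2 encodes plasminogen activator inhibitor 2, a largely intracellular inhibitor of urokinase. Its level was 11.36, 11.80 and 11.84 in control forestomach of animals 214, 216 and 217, and 10.39, 9.97 and 10.52 in masses 412, 426 and 510. Every mass lay below every control forestomach. The change was -1.38 ± 0.23 (SE), a 2.60-fold lower level (limma adjusted p = 0.00462). It was called under all 23 alternatives run for this comparison, with adjusted p from 0.00277 to 0.0296. In the esophagus Serpinb2 was at 10.61, 10.81 and 10.43 in control animals 216, 217 and 214, and at 10.16, 10.05, 10.95 and 10.34 in flox/flox animals 193, 307, 313 and 335. Flox/flox animal 313 was the highest esophagus of all and the groups overlapped, with a change of -0.24 ± 0.22 (adjusted p = 0.943).

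Serpinb7 encodes megsin, whose loss in people causes a palmoplantar keratosis. Its level was 8.82, 9.09 and 9.19 in control forestomach of animals 214, 216 and 217. In masses 412, 426 and 510 it was 4.09, 6.74 and 6.76. All masses lay below the controls, and mass 412 was below 5, the level used as the filter for a measurable gene. The change was -3.17 ± 0.59 (limma adjusted p = 0.00724), a 9.01-fold lower level and the largest difference of any member in any comparison. It was -2.28 without mass 412 (adjusted p = 0.00542), and with forestomach arrays alone it no longer passed (adjusted p = 0.0570). In esophagus, controls 216, 217 and 214 had 8.74, 9.34 and 8.70, and flox/flox 193, 307, 313 and 335 had 7.47, 8.29, 8.03 and 6.95. Each flox/flox esophagus was below each control, yet the change of -1.24 ± 0.55 did not pass (adjusted p = 0.702, unadjusted p = 0.0451). Animal 335, the lowest, was also the array richest in muscle genes; without the 3 muscle-rich arrays the change was -1.29.

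Serpinb5, maspin, is an epithelial serpin known from breast and other carcinomas, where its loss has been linked to invasion. It had the smallest spread of the members, with a residual SD of 0.137 within groups. Control forestomach of 214, 216 and 217 had 11.22, 11.15 and 11.26, and masses 412, 426 and 510 had 10.59, 10.82 and 10.80. The groups did not overlap, and the change was -0.47 ± 0.12 (limma adjusted p = 0.0275), a 1.39-fold lower level. This small change did not pass with array weights (adjusted p = 0.0779), with forestomach arrays alone (0.0889), or without mass 412 (0.0799) or control forestomach 214 (0.0904), 216 (0.0631) or 217 (0.0976). Esophagus levels were 11.40 to 11.65 in the 3 controls and 11.20 to 11.62 in the 4 flox/flox animals, which overlapped.

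Serpinb12, an inhibitor of trypsin-like proteases, varied little outside the masses. The 3 control esophagus arrays had 13.08 to 13.26, the 4 flox/flox esophagus arrays 12.93 to 13.05 and the 3 control forestomachs 13.004 to 13.056. Masses 412, 426 and 510 had 11.38, 12.70 and 12.90. Mass 412 thus stood far below all other arrays, and the other two masses were only slightly below the controls. The change of -0.70 ± 0.29 did not pass (limma adjusted p = 0.157); without mass 510 it was -0.98 (adjusted p = 0.0379) and without mass 412 it was -0.22 (adjusted p = 0.178).

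Serpinb3a and Serpinb3c belong to the mouse counterparts of the human squamous cell carcinoma antigens, SERPINB3 and SERPINB4, which inhibit cathepsins and serine proteases. Serpinb3a was at 10.12, 9.56 and 10.48 in control forestomach of 214, 216 and 217, and at 10.75, 10.84 and 11.32 in masses 412, 426 and 510. All masses were above all control forestomachs. The change was 0.92 ± 0.24 (limma adjusted p = 0.0295), a 1.89-fold higher level. The esophagus was turned the other way, with levels of 11.60, 12.18 and 12.13 for control animals 216, 217 and 214. Flox/flox animals 193, 307, 313 and 335 had 11.23, 11.44, 11.61 and 11.35. Flox/flox 313 was level with control 216 and the rest lay below all controls, a change of -0.56 ± 0.22 that did not pass (adjusted p = 0.638, unadjusted p = 0.0260). The call in the masses was lost with array weights (adjusted p = 0.259), with forestomach arrays alone (0.105), without the 3 muscle-rich esophagus arrays (0.0621), and without control forestomach 214 (0.0793) or 216 (0.108) or mass 510 (0.0740).

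Serpinb3c had the largest spread within groups of any member, a residual SD of 1.43, which ranked 107 from the top among 15875 genes, where the median was 0.188. Control esophagus of 216, 217 and 214 had 11.85, 12.96 and 10.80, and control forestomach of the same animals 10.95, 12.18 and 10.37. Animal 217 was highest and animal 214 lowest in both tissues. Flox/flox esophagus of 193, 307, 313 and 335 had 13.22, 10.63, 13.12 and 12.98. Masses 412, 426 and 510 had 8.95, 12.75 and 12.81. Thus 1 animal of each flox/flox group, 307 and 412, lay more than 2 log2 units below the others of its group. The changes were 0.62 ± 0.96 in esophagus (limma adjusted p = 0.995) and 0.34 ± 1.03 in the masses (adjusted p = 0.889), with 95% intervals of -1.47 to 2.71 and -1.90 to 2.57, so changes of several fold either way were not detectable with these samples.

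Serpinb11, epipin, a cluster neighbour of Serpinb3c, was at 10.19, 10.18 and 10.22 in control forestomach of 214, 216 and 217. Masses 412, 426 and 510 had 11.39, 9.71 and 11.20. Masses 412 and 510 lay above every control forestomach and mass 426, the one with glandular stomach genes, lay below. The change was 0.56 ± 0.34 (limma adjusted p = 0.343), and without mass 426 it was 1.09 (adjusted p = 0.00263). In esophagus the controls 216, 217 and 214 had 10.84, 11.27 and 10.89, and flox/flox 193, 307, 313 and 335 had 11.69, 11.21, 11.53 and 11.63. Animal 307 alone overlapped the controls, and the change of 0.52 ± 0.32 did not pass (adjusted p = 0.837).

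Serpinb1a encodes an inhibitor of the neutrophil proteases elastase, cathepsin G and proteinase 3, and neutrophils themselves make it. It was at 10.01, 10.08 and 10.07 in control forestomach of 214, 216 and 217, and at 11.03, 10.14 and 10.73 in masses 412, 426 and 510. Mass 426 was only just above the controls. The change was 0.58 ± 0.19 (limma adjusted p = 0.0708), and without mass 426 it was 0.83 (adjusted p = 0.00452). The mean of 9 neutrophil genes was 7.27, 6.43 and 7.54 in these masses and 5.96 to 6.15 in control forestomach, so mass 426 was lowest for both. Of these 9 genes, S100a8 (5.43 ± 1.27, limma adjusted p = 0.0196) and S100a9 (4.42 ± 1.01, adjusted p = 0.0179), which stressed squamous cells also make, were called higher and Il1r2 lower (-1.69 ± 0.36, adjusted p = 0.0124). The summed intensity of the 9 was 1161 to 12379 in the masses and 1182 to 1329 in control forestomach. Ly6g, Ngp and Clec4d did not pass the level filter, and the part of neutrophils in the Serpinb1a level was not tested. In esophagus Serpinb1a was at 10.13 to 10.31 in controls and 10.31 to 10.71 in flox/flox animals, which did not overlap, with a change of 0.20 ± 0.18 (adjusted p = 0.941).

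**Figure D2:**
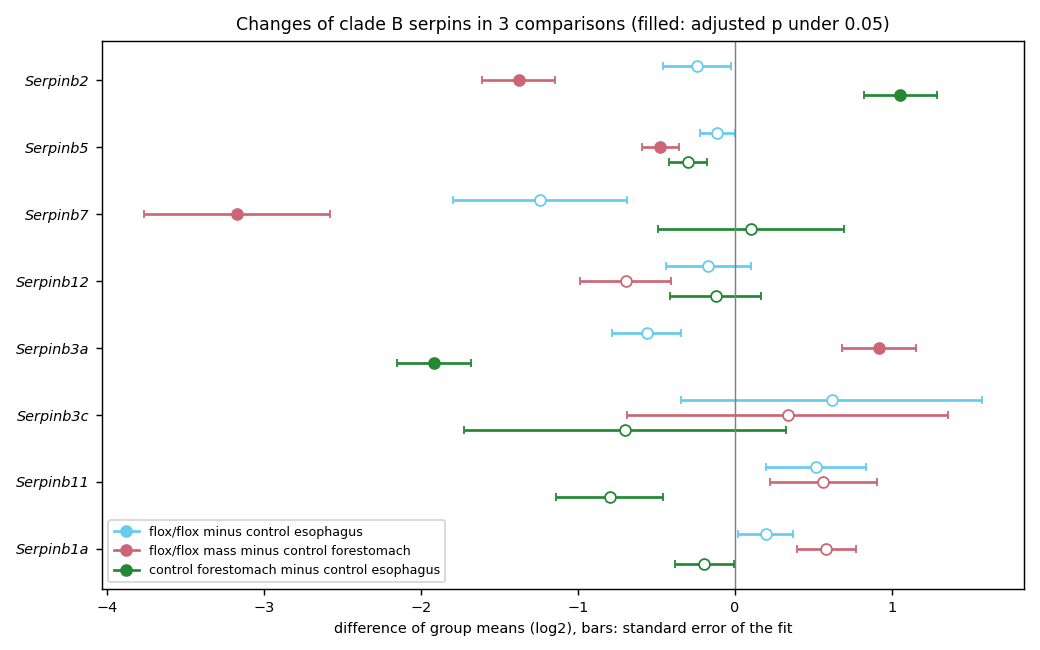
Difference of group means on the log2 scale for each measured clade B serpin in 3 comparisons, with the SE of the fit as bars and filled points where the adjusted p was under 0.05. No esophagus point is filled; in the masses Serpinb2, Serpinb5 and Serpinb7 are filled to the left of 0 and Serpinb3a to the right, and between the control tissues Serpinb2 and Serpinb3a are filled on opposite sides.

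Between flox/flox and control esophagus, limma called 0 of the 8 members, where 0.0126% of all genes (2) were called. At an unadjusted p under 0.05, 2 members passed, Serpinb3a and Serpinb7, where 6.98% of all genes did. The groups did not overlap, with flox/flox lower, for Serpinb7 and Serpinb12 (6.10% of all genes) and, with flox/flox higher, for Serpinb1a (4.18% of all genes). The median change was -0.14 over the members and 0.01 over all genes.

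The changes in the masses and in esophagus were compared by the difference of the log2 changes, forestomach minus esophagus. No member passed, where 0.139% of all genes did, and 4 members had an unadjusted p under 0.05, where 10.5% of all genes did. They were Serpinb3a, with a difference of 1.48 ± 0.32 (limma adjusted p = 0.0935), Serpinb2 with -1.14 ± 0.32 (adjusted p = 0.201), Serpinb7 with -1.93 ± 0.81 (adjusted p = 0.434) and Serpinb5 with -0.36 ± 0.16 (adjusted p = 0.473). With the animal as a random replicate block, which uses that the 3 control animals gave both tissues, Serpinb3a passed (adjusted p = 0.0261). Every flox/flox esophagus was below the control esophagus mean of Serpinb3a, 11.97, and every mass was above the control forestomach mean, 10.05.

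In control animals, Serpinb2 was higher and Serpinb3a lower in forestomach than in esophagus. Of all genes tested, 3.51% were called higher and 3.16% lower in forestomach. The medians were -0.25 over the members and 0.02 over all genes. Serpinb3a was lower in the forestomach of animals 216, 217 and 214 by differences of -2.04, -1.71 and -2.00. The mean difference was -1.92 ± 0.24 (limma adjusted p = 0.000571), a 3.77-fold lower level, and it passed under all 24 alternatives. For Serpinb2 the differences in 216, 217 and 214 were 1.20, 1.03 and 0.93, all upward. Their mean was 1.05 ± 0.23 (adjusted p = 0.0184); the call was lost without control esophagus 216 (0.0607) or 214 (0.0721), control forestomach 216 (0.0833) or 217 (0.0810), or the 3 muscle-rich arrays (0.0946).

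Serpinb11, Serpinb3c, Serpinb5, Serpinb1a and Serpinb12 were also lower in forestomach in each of the 3 animals, without passing. How many of all genes tested were lower in each of these animals was not counted. For Serpinb11 the differences were -0.65, -1.04 and -0.70 (mean -0.80 ± 0.34, limma adjusted p = 0.196), and for Serpinb3c -0.89, -0.78 and -0.43 in animals 216, 217 and 214 (mean -0.70 ± 1.03, adjusted p = 0.734). With the animal as a fixed replicate block in the control arrays alone, both passed, Serpinb11 at an adjusted p of 0.0150 and Serpinb3c at 0.0242, and 4 members passed in all. For Serpinb5 they were -0.33, -0.39 and -0.17 (mean -0.30 ± 0.12, adjusted p = 0.176; 0.0494 with the random replicate block). For Serpinb1a they were -0.22, -0.25 and -0.12 and for Serpinb12 -0.07, -0.20 and -0.09, with means of -0.20 and -0.12 and adjusted p of 0.592 and 0.846. Serpinb7 alone differed in sign between animals, with 0.34, -0.15 and 0.12 (mean 0.11, adjusted p = 0.938).

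**Figure D3:**
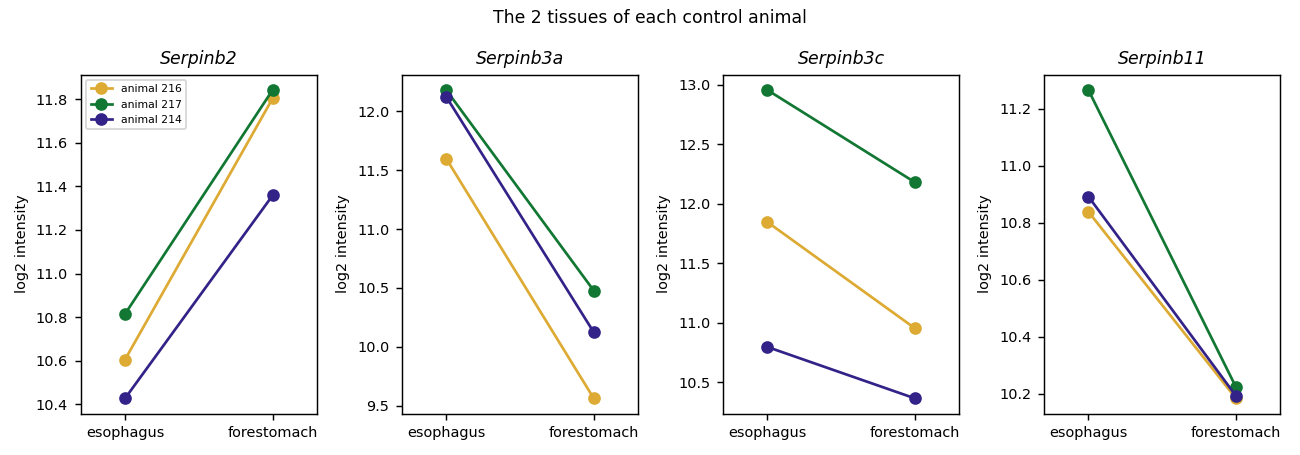
Log2 intensity of 4 clade B serpins in esophagus and forestomach of control animals 214, 216 and 217, with a line for each animal; the axes do not start at 0. In every animal Serpinb2 is higher and the other 3 genes are lower in forestomach, and the Serpinb3c lines keep the animals in the same order.

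By group means, Serpinb2 was highest in control forestomach (11.67 ± 0.27, SD, n = 3). Control esophagus (10.62 ± 0.19, n = 3), flox/flox esophagus (10.38 ± 0.40, n = 4) and the masses (10.29 ± 0.28, n = 3) followed, and the arrays of these 3 groups overlapped. Serpinb3a ran from control esophagus (11.97 ± 0.32, n = 3) over flox/flox esophagus (11.41 ± 0.16, n = 4) and the masses (10.97 ± 0.31, n = 3) to control forestomach (10.05 ± 0.46, n = 3). Of its neighbours in that order, flox/flox esophagus and the masses overlapped, with flox/flox 193 at 11.23 below mass 510 at 11.32, as did control and flox/flox esophagus. Serpinb7 was at 9.03 ± 0.19 in control forestomach and 8.93 ± 0.36 in control esophagus, which did not differ beyond their spread, then at 7.68 ± 0.60 in flox/flox esophagus and 5.86 ± 1.54 in the masses. Serpinb5 was highest in esophagus, 11.51 ± 0.13 in controls and 11.39 ± 0.18 in flox/flox animals, then 11.21 ± 0.06 in control forestomach and 10.74 ± 0.13 in the masses, and only the masses lay apart from all other arrays.

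Along the chromosome 1 cluster, the changes in the masses lay in runs of adjacent genes with the same sign. Serpinb5, Serpinb12 and Serpinb13 were below 0, and Serpinb3a, Serpinb3d, Serpinb3c and Serpinb11 above 0. Serpinb7, Serpinb2, Serpinb10 and Serpinb8 were again below 0. Only Serpinb5, Serpinb7, Serpinb2 and Serpinb8 (lower) and Serpinb3a and Serpinb3d (higher) were called, and Serpinb3b was not tested. Of 20 other clade B serpins listed, 16 had a probe set and 9 were tested. Of the 9, limma called 1 higher and 1 lower in the masses, and 0 in esophagus. Only Serpinb8 had an unadjusted p under 0.05 in esophagus, with a change of -0.56 ± 0.21 (limma adjusted p = 0.615). Serpinb3d, a further squamous cell carcinoma antigen homologue, was at 5.55, 5.40 and 6.27 in control forestomach of 214, 216 and 217 and at 6.20, 7.42 and 7.41 in masses 412, 426 and 510. Mass 412 overlapped control 217, and the change was 1.27 ± 0.36 (limma adjusted p = 0.0444). Serpinb8, known as an inhibitor of furin, was at 10.14 to 10.15 in control forestomach and at 8.99, 8.94 and 9.49 in masses 412, 426 and 510, all of them lower, with a change of -1.005 ± 0.227 (adjusted p = 0.0167). Serpinb13, headpin, an inhibitor of cathepsins L and K, was called between the control tissues, with 5.13 to 5.35 in esophagus and 7.39 to 7.77 in forestomach (2.37 ± 0.48, adjusted p = 0.0118). In masses 412, 426 and 510 it was at 4.56, 6.33 and 7.08, all below control forestomach, and the change of -1.63 ± 0.48 just missed the threshold (adjusted p = 0.0508). The median over these 9 genes was -0.06 in both genotype comparisons and -0.74 between the control tissues.

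**Figure D4:**
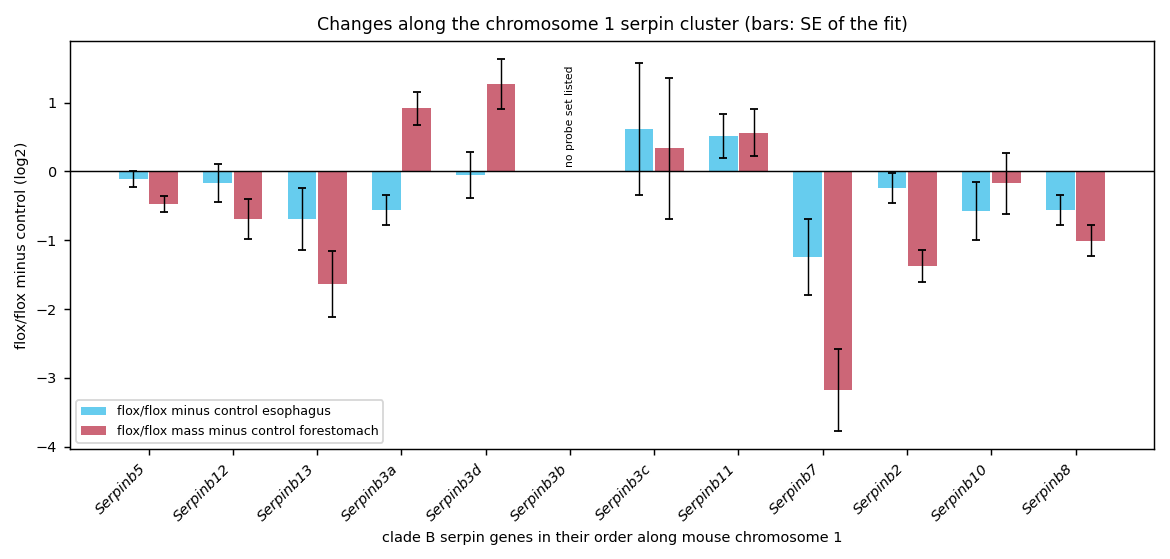
Log2 change from control to flox/flox for the 12 clade B serpin genes in their order on chromosome 1, in esophagus and in forestomach masses, with the SE of the fit as bars; no probe set was listed for Serpinb3b. In the masses Serpinb3a and Serpinb3d are above 0, Serpinb7, Serpinb2 and Serpinb8 reach -3.17, -1.38 and -1.005, and the esophagus bars are smaller for each of these.

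Proteases that clade B serpins are known to bind, or that share their compartments, were listed next (19 genes, 16 tested). In the masses 1 was called higher and 2 lower, with a median of 0.49. Ctsh, the lysosomal aminopeptidase cathepsin H, rose by 2.06 ± 0.25 (limma adjusted p = 0.00117). Ctsl, cathepsin L, a target of Serpinb3 and Serpinb13 proteins, fell by 0.99 ± 0.20 (adjusted p = 0.00975), and Prss8, the membrane protease prostasin, fell by 0.69 ± 0.18 (adjusted p = 0.0315). The difference between the tissues' changes passed for Ctsh (2.07 ± 0.35, adjusted p = 0.0498). In control forestomach Ctsl (1.82 ± 0.20, adjusted p = 0.000265) and St14, matriptase (0.41 ± 0.11, adjusted p = 0.0420), were higher than in esophagus and Ctsh was lower (-1.41 ± 0.25, adjusted p = 0.00597). In flox/flox esophagus limma called 0 of the 16, with 1 at an unadjusted p under 0.05.

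In the list of plasminogen activation, which holds Serpinb2, 7 of 9 genes were tested. In the masses the urokinase receptor Plaur (1.25 ± 0.19, limma adjusted p = 0.00255) and Anxa2 (0.66 ± 0.19, adjusted p = 0.0467), a plasminogen-binding annexin, rose while Serpinb2 fell. Between the control tissues Anxa2 (-0.97 ± 0.19, adjusted p = 0.00953) and its partner S100a10 (-1.73 ± 0.29, adjusted p = 0.00458) were lower in forestomach, where Serpinb2 was higher. In flox/flox esophagus limma called 0 of the 7, with 1 at an unadjusted p under 0.05.

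Other protease inhibitors of squamous epithelium also moved both ways (22 listed, 16 tested). Stfa3, a stefin that inhibits cathepsins, rose in the masses by 2.48 ± 0.51 (limma adjusted p = 0.0112). Cst6, cystatin E/M, fell by 1.39 ± 0.28 (adjusted p = 0.00981) and Spink5, which encodes the kallikrein inhibitor LEKTI, fell by 0.58 ± 0.16 (adjusted p = 0.0438). In control forestomach Cst6 (1.65 ± 0.28, adjusted p = 0.00436) and Spink5 (0.92 ± 0.16, adjusted p = 0.00581) were higher than in esophagus, and Slpi (-1.28 ± 0.13, adjusted p = 0.000189) and Wfdc5 (-1.24 ± 0.20, adjusted p = 0.00341) lower. The list's medians were 0.07 in the masses, -0.10 in flox/flox esophagus and -0.33 between the control tissues. In flox/flox esophagus limma called 0 of the 16, also 0 at an unadjusted p under 0.05.

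Markers of differentiated squamous cells, which make several of these serpins, were also lower in the masses. All 14 tested were below 0 in the masses, with a median of -0.61, and 4 were called lower, those of smallest adjusted p being Sbsn (-0.999 ± 0.192, limma adjusted p = 0.00820), Krt4 (-0.56 ± 0.13, 0.0178) and Crct1 (-0.66 ± 0.17, 0.0295). Their mean log2 level was 11.61, 11.92 and 12.10 in masses 412, 426 and 510 and 12.42 to 12.56 in control forestomach, and their summed intensity 57491 to 92806 against 108130 to 112167. Of the members that fell, Serpinb5 and Serpinb7 were lowest in mass 412, which was also lowest of the masses for these markers, and Serpinb2 was lowest in mass 426 (9.97, against 10.39 in mass 412). Serpinb12 and Serpinb3c, which did not pass, were lowest in mass 412, as was Serpinb3a (10.75), which rose. Serpinb11 (11.39) and Serpinb1a (11.03) went the other way and were highest in mass 412. In flox/flox esophagus all 14 were below 0 as well, with a median of -0.25, and limma called 0, with 3 at an unadjusted p under 0.05. Of the 7 basal genes, 4 were above 0 in the masses (median 0.17), and limma called 0. Their mean log2 level was 10.18 to 10.51 in the masses and 10.20 to 10.44 in control forestomach. Their summed intensity was 16079 to 22359 in the masses against 14036 to 15152 in control forestomach. Genes of fibroblasts and matrix were above 0 in the masses for 10 of 10, with summed intensities of 1664 to 6396 against 1108 to 1977 in control forestomach. Limma called 0 of the 10, also 0 at an unadjusted p under 0.05. The sum in mass 510 (1664) lay below that in control forestomach 214 (1977). Between the control tissues 3 of the 14 differentiation genes were called higher in forestomach, Krt1, Krt10 and Ivl, by 7.42, 6.22 and 2.49 (limma adjusted p = 4.35e-07, 2.98e-05 and 0.0140), and 3 of 7 basal genes lower. The lists as wholes were mixed there. Of the 14 differentiation genes 7 were above 0 (median 0.03), and of the 7 basal genes 2 were (median -0.51). The part of these cells in the serpin levels was not tested.

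Over the 13 arrays, Serpinb7 and Serpinb12 had the most alike levels of any pair of members (Pearson r = 0.884), and after group means were taken off, r was 0.912. Mass 412 was the lowest array for both, at 4.09 and 11.38, and Serpinb12 varied little outside the masses, so these values rest largely on the masses. Serpinb1a and Serpinb11 had r = 0.663, and 0.837 after group means were taken off, with mass 426 low for both. Serpinb3a and Serpinb3c, close copies, had r = 0.363. These and the values that follow describe 13 arrays that share 4 groups and 3 animals.

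Among all other genes tested, the closest in pattern to Serpinb7 were Acer1, a ceramidase, and Atp6ap2 (both r = 0.978). Those closest to Serpinb12 were Gja1, connexin 43 (r = 0.982), and P2ry4 (0.963), and to Serpinb5 Rassf9 (0.980) and Dmxl1 (0.971). Serpinb2 was most like Rab38 (r = 0.932) and Pard6b (0.926), Serpinb3a like Sptlc3 (0.923) and Trps1 (0.921), Serpinb11 like Abhd13 (0.941) and Il1rl2 (0.940), and Serpinb1a like Syt12 (0.943) and Lsm4 (0.927). Serpinb3c had the weakest likeness of the members, to Rnf133 (r = 0.800) and Zfp108 (0.797).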

How the data were processed

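The deposited values are intensities on a linear scale that the authors made with GCRMA, per the submitters' processing notes; no version of it is stated there. The array was read once for each of 13 samples from 10 animals; median intensities were 65.3 to 72.4. Precision is limited by how many arrays there were. Values were floored at 1 and put on the log2 scale. Of 34729 probe sets, 21633 had 1 gene, 1306 several and 11790 none. A probe set entered if its log2 value was above 5 on at least 3 arrays; the one of highest mean stood for its gene.

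Group means were fitted with limma 3.58.1 in R 4.3.3 (lmFit, eBayes; 13 arrays, 4 groups, 9 residual degrees of freedom, no block). The fit was tested on simulated data in which each gene had the same spread in all groups. That did not cover the larger spread of the masses. Control animals 214, 216 and 217 gave both tissues: deviations of their arrays from the group means correlated at 0.401, 0.398 and 0.315 within an animal and at -0.425 to 0.129 between animals, so the animal was tried as a block. Other alternatives were filters, normalizations, the spread, the arrays included and each array left out.

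All measured members were named; from other lists, up to 3 called genes of smallest adjusted p per comparison, and for each member the 2 genes of highest correlation. Serpinb3d, Serpinb8 and Serpinb13 were named as called in a comparison. The members and the 15 lists were chosen with earlier results of these data known. Motifs and sequences came from RefSeq tables.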

Additional observations from a re-analysis of the deposited data

Results flagged for a closer look

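In flox/flox esophagus the Serpinb3c level of animal 307, 10.63, was far below those of the other 3 animals, 12.98 to 13.22. The gap to the nearest was 0.906 of the group's whole range, above Dixon's critical value for a group of that size. All 8 measured members were checked this way in that group, and chance marks about 1 in 20 such groups. Animal 307 was 1 of the 3 esophagus arrays rich in skeletal muscle genes (mean log2 7.86). Of the other two, flox/flox 335 (9.23) had a Serpinb3c level of 12.98, within the range of the group's other animals, and control 214 (8.09) had 10.80, the lowest of the control esophagus arrays (11.85 and 12.96 in the others). The part of muscle content in the Serpinb3c level was not tested.

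Serpinb3a was lower than the control mean in all 4 flox/flox esophagus samples and higher than the control mean in all 3 masses. The difference of the log2 changes was 1.48 ± 0.32 (SE; limma adjusted p = 0.0935), and with the animal as a random replicate block the adjusted p was 0.0261. Over its alternatives the adjusted p of this difference ran from 0.0261 to 0.446.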

How the results depend on the processing

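Of 736 changes of single members over 24 alternatives, 692 kept direction and side of the threshold, 18 lost and 13 gained a call, and 13 turned sign. The count of members called in the masses, 4 as reported, was 2 with array weights and 1 with forestomach arrays alone; leaving out 1 array gave 2 to 6, the 6 without mass 426. Between the control tissues, 2 as reported, it was 4 with array weights, 4 with the animal as a fixed replicate block in the control arrays, 1 without the 3 muscle-rich esophagus arrays, and 1 to 3 leaving out 1 array. For the difference of the changes, 0 as reported, it was 1 with the animal as a random replicate block. In esophagus it was 0 throughout, as it was for the difference leaving out 1 array. Apart from Serpinb3a in the difference, and Serpinb5, Serpinb11 and Serpinb3c between the control tissues, either block changed no member's call. Serpinb1a passed in the masses with the stricter filter (adjusted p = 0.0457) and quantile normalization (0.0448). The sign turned only for changes that were not called: Serpinb11 in the difference (-0.0523 with array weights; -0.26 to 0.58 leaving out 1 array), Serpinb3c in the difference (-0.94 to 0.99) and in the masses (-0.32 to 1.61), and Serpinb7 between the control tissues (-0.00863 without the 3 muscle-rich arrays; -0.00863 to 0.311 leaving out 1 array). The cause was not tested. Over all genes, calls in esophagus were 0 to 7 (2 as reported), in the masses 452 with forestomach arrays alone to 2238 without mass 510 (1700 as reported), in the difference 5 without the 3 muscle-rich arrays to 373 without mass 510 (22 as reported), and between the control tissues 479 without the 3 muscle-rich arrays to 3802 with array weights (1059 as reported). The difference takes all arrays, so own arrays alone was no separate setting there, and the fixed block was run for the control tissues only. With 3 or 4 arrays per group, small changes of variable members such as Serpinb3c could not be seen.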

Other observations

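Genes of other cell types in the epithelium were counted as well. In flox/flox esophagus all 11 macrophage and monocyte genes tested were above 0 (median 0.32) and all 5 genes shared by leukocytes (median 0.84), and in the masses 10 of 11 (median 0.77) and 5 of 5 (median 0.82). Limma called 0 of either list in both comparisons, with 0 and 3 at an unadjusted p under 0.05 in esophagus and 1 and 1 in the masses. The esophagus groups overlapped in the mean log2 level of both lists. The macrophage and monocyte mean was 5.75 to 7.73 in controls, highest in the muscle-rich control 214, and 6.17 to 7.69 in flox/flox animals. The mean of the shared leukocyte genes was 5.67 to 6.97 in controls and 6.26 to 8.01 in flox/flox animals. Mast cell genes were above 0 for 5 of 5 in the masses (median 0.81) and for 1 of 5 in flox/flox esophagus (median -0.20). Averaged over these genes, mass 510 (5.34) lay inside the control forestomach range of 5.08 to 5.58, and masses 412 (6.31) and 426 (6.81) lay above it. T and NK cell genes were above 0 for 4 of 4 in both (medians 0.22 and 0.60). Averaged over them, flox/flox esophagus 193 reached 7.76. Animals 307, 313 and 335 had 5.29, 6.19 and 6.07, beside 5.31 to 6.01 in control esophagus. Masses (5.68 to 5.88) and control forestomach (5.32 to 5.80) overlapped. Endothelial genes were above 0 for 8 of 8 in the masses (median 1.37). None of these 3 lists had a called gene in the masses, with 2, 0 and 4 at an unadjusted p under 0.05 by limma. The share of all genes at that unadjusted threshold in the masses was not counted, so these counts have no background beside them.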
